A study of Mus musculus with 6 samples.

Results

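The neurotrophins, GDNF and their receptors were measured by RNA sequencing of brain tissue after photothrombotic stroke, in mice given PLEA nanoparticles and in mice given saline. The set holds 8 genes, taken by gene name from a count table of 56748 genes: the ligand genes Bdnf, Ntf3 and Gdnf and the receptor genes Ntrk2, Ntrk3, Ngfr, Sort1 and Gfra1. All 8 passed the filter on low counts and were among the 17584 genes tested.

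Neurotrophins are made as pro-forms that proteases cut to mature factors. Mature BDNF acts through the kinase TrkB (Ntrk2) and neurotrophin-3 (Ntf3) through TrkC (Ntrk3), while the low-affinity receptor encoded by Ngfr binds every neurotrophin and, together with sortilin (Sort1), binds the pro-forms. GDNF binds its co-receptor GFRα1 (Gfra1), which then signals through the kinase RET or the adhesion molecule NCAM. In the adult forebrain, excitatory neurons make BDNF in an activity-dependent way, astrocytes hold much of a TrkB form without the kinase domain, cholinergic neurons of the basal forebrain carry the Ngfr receptor, and GDNF is known for its support of dopaminergic neurons that project to the striatum.

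The PLEA group was 3 libraries from male wild-type C57 mice (genotype WT) that received 100 µL of PLEA nanoparticles by the tail vein 2 hours after the stroke, and the saline group was 3 libraries from like mice that received 100 µL of saline. All 6 are labelled brain and carry the batch label day 3, which is not explained further, and the labels do not say which region was taken or whether it held the lesion. In all of them the stroke had been made in the left hemisphere with an intravenous injection at 100 mg/kg, of an agent the labels do not name, and a 532 nm laser for 5 minutes, the brains were perfused with PBS, and no animals without a lesion were analysed here. The labels give no age, do not spell out PLEA and say nothing of separate animals behind the libraries, and p-values therefore cover only the variation among these libraries, which may be technical. Gene totals ranged from 16810448 to 17516434 counts per library. Excitatory neuron markers such as Slc17a7 and Camk2a were present in every library, and 9 of 9 striatal markers were also detected, at a summed level of 750 to 1700.4 CPM in PLEA and 164 to 1708 CPM in saline. Of 7 markers of infiltrating myeloid cells, 5, among them Ccr2 and S100a8, were below the filter. CPM here are counts scaled by TMM factor and by the library total over the tested genes.

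The stretches of DNA shown first lie directly before the start sites of 3 genes. Bdnf is the most abundant of the 3 ligands and Gdnf the member with the lowest level per length. Npas4, a gene of an activity-induced transcription factor, is not a member and was chosen with earlier results of these data known. RefSeq sequences of build GRCm38.p6 were found for 6 of the 8 members (Bdnf, Ntf3, Ntrk2, Ngfr, Gdnf and Gfra1), in 14 windows of 250 bases. Capitals mark the letters TGACGT, the core of the cAMP response element to which CREB binds, or their reverse complement ACGTCA, searched on both strands.
Bdnf, chr2:109692186-109692435, plus strand: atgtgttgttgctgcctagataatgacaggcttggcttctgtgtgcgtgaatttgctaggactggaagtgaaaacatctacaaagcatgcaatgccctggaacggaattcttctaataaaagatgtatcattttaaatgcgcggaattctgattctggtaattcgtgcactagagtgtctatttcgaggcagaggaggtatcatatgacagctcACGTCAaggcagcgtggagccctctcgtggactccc
Gdnf, chr15:7809798-7810047, plus strand: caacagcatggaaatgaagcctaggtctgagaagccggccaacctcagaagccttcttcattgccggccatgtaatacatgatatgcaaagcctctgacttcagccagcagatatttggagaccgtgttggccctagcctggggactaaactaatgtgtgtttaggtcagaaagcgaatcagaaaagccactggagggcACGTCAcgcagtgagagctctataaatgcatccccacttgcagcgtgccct
Npas4, chr19:4989972-4990221, minus strand: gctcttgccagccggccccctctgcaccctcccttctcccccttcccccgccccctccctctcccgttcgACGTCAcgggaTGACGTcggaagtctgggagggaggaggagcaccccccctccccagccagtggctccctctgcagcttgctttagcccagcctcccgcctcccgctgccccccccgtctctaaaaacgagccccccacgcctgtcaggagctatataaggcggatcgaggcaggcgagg
Among the members, 2 of the 14 windows held a match, 1 of 7 for Bdnf and 1 of 2 for Gdnf. The match began 36 bases before the start in Bdnf and 51 bases before it in Gdnf, and Npas4 had 2 matches, which began 180 and 169 bases before its start. Fosb and Egr3, also activity-induced, were searched too. The window of Fosb held 0 matches, and no sequence was found for Egr3. Of all 32851 windows of this length in the RefSeq table, 6.47% held the motif, so a match is a description of these letters and not of a bound site. Counts are per gene, so the start sites of Bdnf cannot be told apart in these data.

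Per gene length, 4 of the 5 receptors (Sort1, Ntrk2, Gfra1 and Ntrk3) stood above the 3 ligands, and Ngfr did not. In TPM, computed from the counts and the gene lengths of the deposited table, Sort1 averaged 300.3 ± 28.5 TPM (SD, n = 6 libraries) and Ntrk2 166 ± 12.1 TPM (SD, n = 6). Gfra1 averaged 47.0 ± 3.53 TPM and Ntrk3 41.2 ± 8.25 TPM (SD, n = 6 each). The ranges of these last receptors overlapped, while Sort1 lay above Ntrk2, Ntrk2 above Gfra1 and Ntrk3 above Bdnf in every library.

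The lower places were taken by the ligands and Ngfr. Bdnf averaged 12.3 ± 4.60 TPM and Ngfr 8.60 ± 6.05 TPM (SD, n = 6 each), and Bdnf was the higher of the pair in 3 of 6 libraries. Ntf3 averaged 2.45 ± 0.539 TPM and Gdnf 1.67 ± 0.991 TPM (SD, n = 6 each), with overlapping ranges although Ntf3 was above Gdnf in 6 of 6 libraries. The table's gene lengths, 19292 bases for Ntrk2 and 30170 for Ntrk3, cover more than 1 transcript form, so TPM can understate a gene whose shorter form is the one made.

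**Figure D1:**
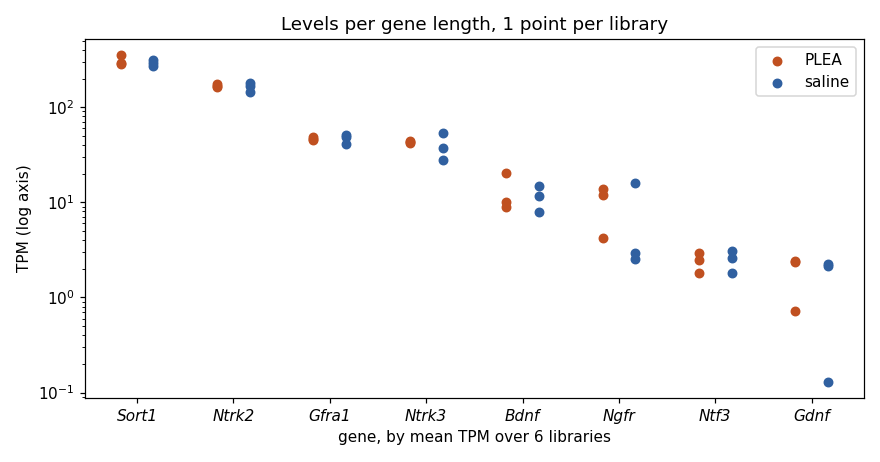
Level per gene length of each member in TPM on a log axis, 1 point per library, PLEA libraries left of saline libraries for each gene. Sort1, at 272 to 352 TPM, and Ntrk2, at 145 to 181 TPM, stand above the other members in all 6 libraries.

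None of the 8 members passed the test between PLEA and saline. The edgeR quasi-likelihood test called 0 of the 8 at an adjusted p under 0.05, against 0% of all tested genes in either direction, and 0 of 8 at an unadjusted p under 0.05, against 5.86% of all tested genes. DESeq2 and limma voom also called 0 of the 8. Over all genes edgeR called 0, with 1031 at an unadjusted p under 0.05, limma voom called 0, and DESeq2 called 2 higher and 36 lower. DESeq2 was run on the 34187 genes with any count, without the low-count filter, and edgeR without that filter called 7 higher and 31 lower. The PLEA and saline ranges overlapped for 8 of 8 members, where 10.7% of tested genes had groups apart. Log2 fold changes were positive for 4 members and negative for 4, with a median of 0.02, beside a median of -0.0051 over all tested genes.

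**Figure D2:**
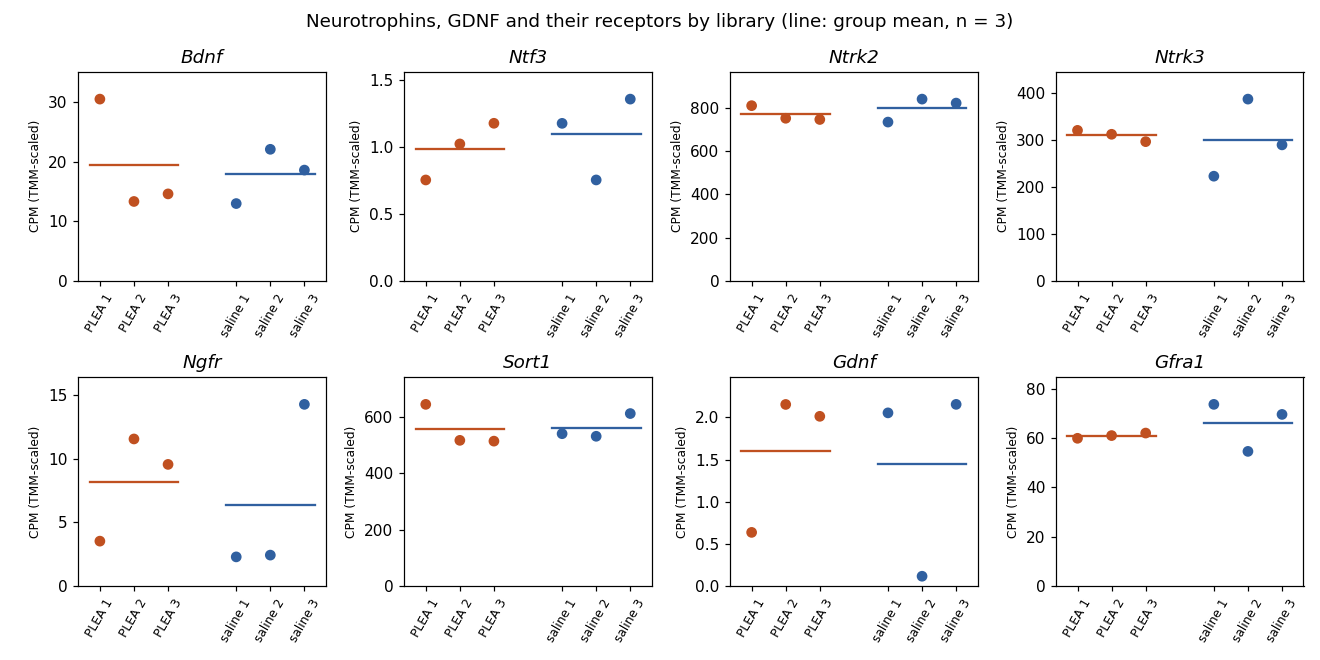
CPM of each member in each library (points) with the group mean (line, n = 3), PLEA left of saline and every axis from 0. Bdnf stands out in PLEA replicate 1 at 30.5 CPM, and Ngfr and Gdnf each show libraries near the top and the bottom of the range in both groups.

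Among the ligands, Bdnf, which supports neuronal survival and synaptic plasticity, was at 30.5, 13.3 and 14.6 CPM in PLEA replicates 1 to 3, against 13.0, 22.1 and 18.6 CPM in saline replicates 1 to 3. PLEA replicate 1 was the highest library and saline replicate 1 the lowest, and the other PLEA libraries lay inside the saline range. Its log2 fold change was 0.12 (SE 0.33, adjusted p = 0.963), with a 95% interval of -0.64 to 0.89. Without PLEA replicate 1 the value was -0.36 and without saline replicate 1 it was -0.053, so its sign rested on 1 library of either group. In the deposited table Bdnf spans bases 109505045 to 109557352 of chromosome 2.

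Ntf3, the ligand of TrkC, was at 0.751, 1.02 and 1.17 CPM in PLEA, against 1.17, 0.751 and 1.35 CPM in saline. These values rest on 13, 18 and 21 counts in PLEA and 20, 13 and 22 counts in saline. The groups covered almost the same range, and the log2 fold change of -0.15 (SE 0.38, adjusted p = 0.957) had a 95% interval of -1.03 to 0.73. Counting error alone gave the lowest library, PLEA replicate 1, an exact Poisson interval of 0.400 to 1.28 CPM.

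Gdnf had 11, 38 and 36 counts in PLEA, against 35, 2 and 35 counts in saline. In CPM these were 0.636, 2.15 and 2.01 in PLEA and 2.05, 0.116 and 2.15 in saline. Saline replicate 2 and PLEA replicate 1 were low, and the other libraries of both groups lay within 2.01 to 2.15 CPM. The 2 counts of saline replicate 2 have an exact 95% Poisson interval of 0.0140 to 0.418 CPM, which does not reach the 1.41 CPM at the lower end of the interval of PLEA replicate 3. Between the groups the log2 fold change was 0.16 (SE 0.80, adjusted p = 0.982) with a 95% interval of -1.68 to 1.99, and it was -0.40 without saline replicate 2. Intervals of counts cover counting error only.

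Among the receptors, Ntrk2, which encodes the BDNF receptor TrkB, was at 812, 753 and 748 CPM in PLEA, against 736, 842 and 824 CPM in saline. The PLEA libraries lay within the saline range, and the log2 fold change of -0.05 (SE 0.13, adjusted p = 0.951) had a 95% interval of -0.34 to 0.23. Over the 6 libraries the highest value was 1.14 times the lowest, the narrowest range of the 8 members. Astrocyte markers stood beside this at a summed level of 3471 to 4704 CPM in PLEA and 4527 to 7328 CPM in saline, with 9 of 9 log2 fold changes negative and 4 of 9 at an unadjusted p under 0.05, against 3.58% of all tested genes in that direction. The highest sum was in saline replicate 1, and the other saline libraries, at 4527 and 4668 CPM, lay below the highest PLEA library. Saline replicate 1 was the highest library for 8 of 9 astrocyte markers, where it was for 21.3% of all tested genes. PLEA replicate 2 was the lowest for 8 of 9, where it was for 19.1% of all tested genes. The level of Ntrk2 in astrocytes was not measured, since full-length and truncated TrkB share 1 gene count and fewer cells of a type cannot be told apart from less RNA per cell in bulk tissue.

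Ntrk3, which encodes the neurotrophin-3 receptor TrkC, was at 319.6, 311 and 296 CPM in PLEA, against 222, 386 and 289 CPM in saline. The saline libraries held both the highest and the lowest value, and the SD was 12.2 CPM in PLEA and 82.4 CPM in saline. The log2 fold change was 0.05 (SE 0.19, adjusted p = 0.976) with a 95% interval of -0.39 to 0.49, and it was -0.12 without saline replicate 1 and 0.27 without saline replicate 2. The span of Ntrk3 contains the opposite-strand gene Gm9885, which had 47 to 87 counts per library beside at least 3787 for Ntrk3.

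Sort1, which encodes the pro-neurotrophin receptor and sorting protein sortilin, was at 644, 516 and 513 CPM in PLEA, against 539.9, 530.7 and 611 CPM in saline. PLEA replicate 1 was the highest library and the other PLEA libraries the lowest. The log2 fold change of -0.01 (SE 0.14, adjusted p = 0.997) had a 95% interval of -0.33 to 0.32.

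Gfra1, the GDNF co-receptor, was at 59.9, 61.0 and 62.0 CPM in PLEA, against 73.6, 54.6 and 69.6 CPM in saline. The PLEA libraries were nearly equal and lay inside the saline range. Its log2 fold change was -0.11 (SE 0.13, adjusted p = 0.891), with a 95% interval of -0.42 to 0.19. Its unadjusted p of 0.423 was the smallest of the 8 members.

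Ngfr, the low-affinity neurotrophin receptor, was at 3.53, 11.6 and 9.56 CPM in PLEA, against 2.29, 2.43 and 14.3 CPM in saline. The libraries of each group fell on both sides of a wide gap, with PLEA replicate 1 and saline replicates 1 and 2 low and the remaining libraries high. For Ngfr the log2 fold change was 0.38 (SE 0.72, adjusted p = 0.938) with a 95% interval of -1.28 to 2.03. Without saline replicate 3 it was 1.78 (adjusted p = 0.549), and without saline replicate 1 or 2 it was -0.010 or -0.0073. In the deposited table Ngfr spans bases 95459644 to 95478561 of chromosome 11.

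**Figure D3:**
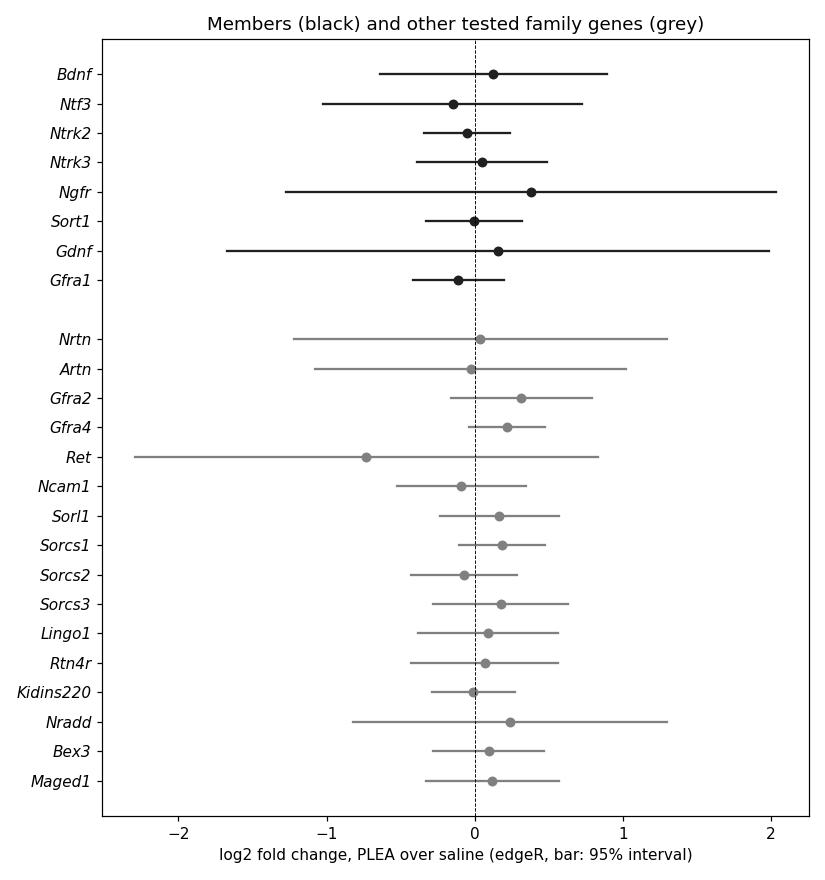
Log2 fold change of PLEA over saline in edgeR with its 95% interval for the 8 members (black) and 16 other tested genes of both families (grey). Every interval shown crosses 0, and those of Ngfr, Gdnf and Ret are the widest shown, each more than 3 log2 units.

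The 3 libraries high for Ngfr were also the 3 highest for markers of striatal and cholinergic neurons. Each of 9 striatal markers and each of 7 markers of cholinergic neurons was higher in PLEA replicates 2 and 3 and saline replicate 3 than in the other 3 libraries. That order was defined by the 3 libraries high for Ngfr, so Ngfr has it by construction, and no other member had it. The share of all tested genes with that order was not counted. Ppp1r1b, the DARPP-32 gene and a marker of striatal projection neurons, stood at 202, 533 and 436 CPM in PLEA, against 189, 25.8 and 411 CPM in saline. Chat, which makes acetylcholine, was at 7.05, 17.1 and 13.4 CPM in PLEA, against 7.86, 3.12 and 13.5 CPM in saline. The summed level of the cholinergic markers was 32.2 to 99.4 CPM in PLEA and 23.4 to 82.8 CPM in saline, and Lhx8, a transcription factor of these neurons, had 0 counts in saline replicate 2. Of 8 inhibitory neuron markers 3 had this order (Gad2, Slc32a1 and Lhx6), and of 8 excitatory neuron markers 0 had it. The low libraries were ranked differently, since 9 of 9 striatal markers were lowest in saline replicate 2, whereas Ngfr was at 2.29 CPM in saline replicate 1 and 2.43 CPM in saline replicate 2.

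Gdnf shared the low values of saline replicate 2 and PLEA replicate 1 with the striatal and cholinergic markers but not that of saline replicate 1, where it was at 2.05 CPM. With the striatal marker level as a covariate, a fit chosen after seeing the data, the log2 fold change was -0.18 for Ngfr (SE 0.50) and -0.69 for Gdnf (SE 0.55). Whether any of the Ngfr or Gdnf counts came from striatal or cholinergic cells was not tested.

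**Figure D4:**
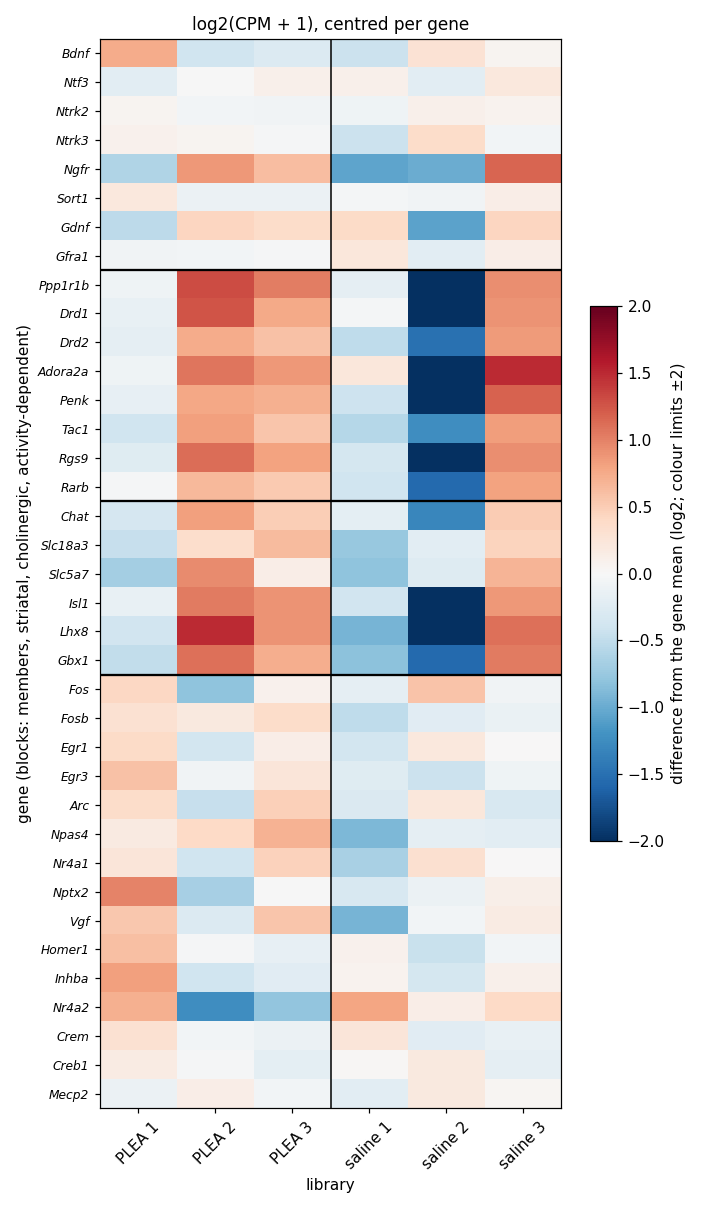
Difference of each library from the gene mean in log2(CPM + 1) for the members and for striatal markers, cholinergic markers and activity-dependent partners of Bdnf (blocks from top to bottom), PLEA libraries left of saline libraries, colours limited to ±2. Ngfr and both marker blocks are highest in PLEA replicates 2 and 3 and saline replicate 3, the striatal block is low mainly in saline replicate 2 while Ngfr is about as low in saline replicate 1, and Bdnf is highest in PLEA replicate 1.

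The other ligands and receptors of both families showed no call. Of 23 listed genes 18 were tested, 0 passed at an adjusted or an unadjusted p under 0.05, 13 log2 fold changes were positive and 5 negative, and their median was 0.11. Groups were apart for 2 of 18, both higher in PLEA, where 5.16% of tested genes were apart in that direction. One was Gfra4, the co-receptor of persephin, at 33.1, 29.6 and 31.9 CPM in PLEA, against 27.2, 27.1 and 27.0 CPM in saline (log2 fold change 0.22, SE 0.11, adjusted p = 0.818). The other was Sorcs1, a relative of sortilin, at 68.1, 68.0 and 73.8 CPM in PLEA, against 52.6, 66.2 and 66.4 CPM in saline (log2 fold change 0.18, SE 0.13, edgeR adjusted p = 0.844). Gfra2, the neurturin co-receptor, had its highest library in PLEA replicate 1, as Bdnf and Sort1 did, at 122 CPM in that library and 62.9 to 89.9 CPM in the others (log2 fold change 0.31, SE 0.21, adjusted p = 0.842). PLEA replicate 1 was the highest library for 7 of these 18 genes and for 11.3% of all tested genes. It was also the highest for 5 of 8 excitatory neuron markers, whose part in these values was not tested. Saline replicate 1 was the lowest library for 9 of the 18 genes, where it was for 21.7% of all tested genes.

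Ret, the signalling kinase of GDNF, fell outside the naming rule and was chosen after its values were seen. It was at 7.51, 10.4 and 9.45 CPM in PLEA, against 2.99, 33.1 and 9.48 CPM in saline. Saline replicate 2, the library with the fewest Gdnf counts, had the most Ret, and saline replicate 1 the least. The log2 fold change was -0.73 (SE 0.68, adjusted p = 0.869). The genes Ntf5, Pspn, Gfra3, Gfral and Gdf15 were below the filter, and Gfral had 0 counts in all 6 libraries, which allows up to 0.0290 CPM over the pooled total.

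Proteins that cut or guard the pro-forms were measured through 14 listed genes, of which 11 were tested and 0 passed at an adjusted p under 0.05. At an unadjusted p under 0.05, 1 was higher and 1 lower, where 2.28% and 3.58% of tested genes were. The proprotein convertase gene Pcsk7 was at 27.6, 32.6 and 34.1 CPM in PLEA, against 24.8, 21.2 and 25.2 CPM in saline (log2 fold change 0.41, SE 0.14, adjusted p = 0.818). Pcsk6, of the same family, was at 12.0, 14.1 and 13.1 CPM in PLEA, against 15.8, 25.5 and 14.8 CPM in saline (log2 fold change -0.52, SE 0.22, adjusted p = 0.818). Both had groups apart, where 5.16% of tested genes were apart and higher and 5.54% apart and lower. Plat, tissue plasminogen activator, which starts the plasmin cascade that can cut pro-BDNF, was at 29.6, 39.3 and 36.7 CPM in PLEA, against 31.1, 26.4 and 29.7 CPM in saline (log2 fold change 0.28, SE 0.14). Mmp9, a matrix protease, had -0.70 on the same scale (SE 0.44, adjusted p = 0.838).

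Downstream of the Trk kinases and RET, 30 of 30 listed adaptors and kinases were tested and 0 passed at an adjusted p under 0.05. Their median log2 fold change was -0.07, with 10 positive and 20 negative. Dok6, an adaptor that binds RET, was the 1 gene of the 30 at an unadjusted p under 0.05, where 3.58% of tested genes were lower at that p. It was at 116, 125 and 98.1 CPM in PLEA, against 188, 142 and 148 CPM in saline (log2 fold change -0.49, SE 0.15, adjusted p = 0.818). Groups were apart for 3 of 30, each lower in PLEA, where 5.54% of tested genes were apart in that direction. The others were Gab2, a docking protein, at -0.25 (SE 0.11), and Pik3ca, a catalytic subunit of phosphoinositide kinase, at -0.26 (SE 0.14). Gab1, the relative of Gab2, was at -0.39 (SE 0.23) with overlapping groups.

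Activity-dependent partners of Bdnf, 15 genes that neuronal firing induces with it or that act on its promoters, had a median log2 fold change of 0.24. Of these 11 were positive and 4 negative, among the latter Nr4a2 at -0.69 (SE 0.47) and Fos at -0.17 (SE 0.33), both outside the naming rule. Past an adjusted p of 0.05 there were 0, and 3 of 15 were higher at an unadjusted p under 0.05, where 2.28% of tested genes were. Those 3 also had groups apart, where 5.16% of tested genes were apart in that direction. The transcription factor gene Npas4, which acts on Bdnf in neurons, was at 16.99, 19.8 and 24.6 CPM in PLEA, against 7.51, 13.0 and 12.7 CPM in saline (log2 fold change 0.88, SE 0.24, adjusted p = 0.818). Fosb was at 18.3, 16.9 and 19.1 CPM in PLEA, against 10.0, 12.3 and 13.2 CPM in saline (log2 fold change 0.61, SE 0.16, adjusted p = 0.818). Every PLEA library was thus above every saline library for both, which was not so for Bdnf, though the difference between Bdnf and these genes was not tested. Egr3 was at 201, 127 and 158 CPM in PLEA, against 113, 98.6 and 126 CPM in saline, and its highest library was PLEA replicate 1, the highest for Bdnf (log2 fold change 0.53, SE 0.18, adjusted p = 0.818). Vgf, a secreted neuropeptide precursor that BDNF induces, was at 320.1, 183 and 324 CPM in PLEA, against 115, 213 and 249 CPM in saline, with overlapping groups (log2 fold change 0.52, SE 0.31, adjusted p = 0.827). PLEA replicate 1 was the highest library for 6 of the 15 genes, where it was for 11.3% of all tested genes. PLEA replicate 3, with Bdnf at 14.6 CPM, was the highest for 5 of the 15, where it was for 13.8% of all tested genes. PLEA replicate 2 was the highest for 0 of the 15 and the lowest for 6, where it was the lowest for 19.1% of all tested genes.

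Other neurotrophic cytokines and factors comprised 13 genes, 11 of them tested, with a median log2 fold change of -0.13 and 0 past an adjusted p of 0.05. Il6st, which encodes the shared receptor subunit of the CNTF and LIF family, was the 1 of 11 at an unadjusted p under 0.05, where 3.58% of tested genes were lower at that p. It was at 99.4, 74.2 and 85.0 CPM in PLEA, against 127, 116 and 109 CPM in saline (log2 fold change -0.45, SE 0.14, adjusted p = 0.818). Its PLEA libraries were all below its saline libraries, where 5.54% of tested genes were apart in that direction. Lifr, its partner in the LIF receptor, had -0.32 (SE 0.16), Ptn, a secreted growth factor, -0.46 (SE 0.26), and Clcf1, a ligand of the same family, 1.25 (SE 0.74), each with overlapping groups. Marker lists of non-neuronal cells held mostly negative log2 fold changes beside this, with 0 genes past an adjusted p of 0.05. Meningeal markers summed to 53.4 to 71.1 CPM in PLEA and 121 to 159 CPM in saline, with 9 of 9 negative and 8 of 9 at an unadjusted p under 0.05. For endothelial markers 6 of 7 were negative and 3 of 7 passed that p, with overlapping sums of 196 to 262 CPM in PLEA and 239 to 374 CPM in saline. Mural markers had 7 of 7 negative and 2 of 7 past it, at 189 to 229.9 CPM in PLEA and 237 to 365 CPM in saline. Microglial markers had 7 of 7 negative and 2 of 7 past it, with overlapping sums of 138 to 424 CPM in PLEA and 258 to 823 CPM in saline. Saline replicate 1 was the highest library for 6 endothelial, 5 mural and 7 microglial markers, beside 21.3% of all tested genes. PLEA replicate 2 was the lowest for 5, 4 and 7 of these markers, beside 19.1% of all tested genes. For the meningeal markers these counts were 4 of 9 and 4 of 9. The astrocyte list is given beside Ntrk2. The part of these cells in the Il6st difference was not tested.

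Genes whose profile over the 6 libraries lay closest to a member were named by the root mean square difference in centred log2 CPM, as a description over 14329 or 14330 candidates. For Bdnf the closest gene was Gm29695, at a difference of 0.10 beside an SD of 0.48 for Bdnf itself. For Ngfr, with an SD of 1.16, the closest were Ecel1 at 0.32 and Rem2 at 0.36. For Gdnf, with an SD of 1.35, the closest was Serpina9 at 0.30. Ntrk3 lay closest to Lratd2 and Prrg3, at 0.037 and 0.049, and Ntrk2 to Ncoa6 and Tpst1, at 0.015 and 0.017. Sort1 lay closest to Rtn4 and Rasal2, at 0.027 and 0.034, Gfra1 to Abracl and Htr3a, at 0.035 each, and Ntf3 to Rpl3-ps1 and Rbm20, at 0.085 each.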

How the data were processed

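Values came as gene counts that the authors deposited in 1 table, whole numbers without normalization. Builds GRCm38 and mm10 are named in the submitters' processing notes, yet 0 of the 8 members had the same span as in GENCODE M21, so coordinates are given as the table has them, with no build. For aligner, counter and strand, the setting is not given in the sources used here. Of the members, 5 overlap other genes in span, and apart from Gm9885 these had at most 6 counts in a library.

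Libraries were grouped by title. The quasi-likelihood test of edgeR 4.0.16 (R 4.3.3) was fitted after filterByExpr and TMM scaling, with no covariate, and p-values were adjusted by Benjamini-Hochberg over 17584 genes, with a threshold of 0.05. Standard errors were the size of the log2 fold change over the root of F, and intervals used the test's degrees of freedom. The procedure was tested on simulated data. Levels for likeness were log2 CPM with a prior count of 2. Alternatives were DESeq2 1.42.0, voom in limma 3.58.1, RLE and upper-quartile factors, other low-count filters (none, or 3 libraries with 1 CPM or more), a replicate block, leaving out each library and scaling by the total alone, and a striatal covariate chosen after seeing the data.

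Members and lists were chosen with earlier results of these data known. Besides the 8 members, up to 4 tested genes with the smallest p were named from each related list, and the 2 closest profiles per member, of genes whose mean log2 CPM was 1 or more. The closest profiles of Bdnf include 1 gene without a symbol, which is not named. Protein sequences were not used here. A few genes that the naming rule or a list holds are counted in the totals and not reported here by name or drawn.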

Additional observations from a re-analysis of the deposited data

How the results depend on the processing

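None of the 8 members was called under any of the 14 alternatives. Genes higher and lower in PLEA numbered 2 (Sdk2 and Krt80) and 36 with DESeq2, itself run without the filter, and 7 and 31 without a low-count filter, against 0 and 0 with edgeR, for which the cause was not tested. With 1 library left out, 0 to 0 genes were higher and 0 to 1 were lower, the 1 being mt-Nd4l without saline replicate 1, and 0 to 1 members at an unadjusted p under 0.05, the 1 being Ngfr without saline replicate 3. Leaving out 1 library moved log2 fold changes between -0.36 and 0.33 for Bdnf, -0.37 and 0.016 for Ntf3, -0.10 and -0.021 for Ntrk2, -0.12 and 0.27 for Ntrk3, -0.010 and 1.78 for Ngfr, -0.13 and 0.050 for Sort1, -0.40 and 0.54 for Gdnf and -0.24 and -0.017 for Gfra1. Sort1 turned to 0.0054 with upper-quartile factors, and the striatal covariate, added after seeing the data, turned Ngfr to -0.18 and Gdnf to -0.69. With limma voom Ngfr was at 0.79 and Gdnf at 0.75, against 0.38 and 0.16 in edgeR. Of 112 log2 fold changes of members under alternatives, 97 kept their sign, and scaling by the total alone moved no mean by more than 1 SD.

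Libraries with the same replicate number deviated together with correlations of 0.37, 0.17 and -0.018 across genes, beside -0.36 to 0.23 for unlike numbers. With 3 libraries per group these values cannot decide whether the numbers pair the libraries. With the replicate block 0 genes were higher, 0 were lower and 0 members were called, with Gdnf at 0.31 and Ngfr at 0.70 (for Ngfr, edgeR adjusted p = 0.786). Replicate 1 of both groups correlated best with its own number and not every library did. At about 1 CPM, Ntf3 and Gdnf rest on 2 to 38 counts, which limits what could be seen for them.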
